A study of Mus musculus with 24 samples.

Results

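The genes described here are the 100 whose signal in the fat of control mice separated most evenly between a pair of circadian times 12 h apart and the pair that lies between them, so that the level went up and down every 6 h. They were chosen by their control signals, from 15607 genes, as those with the largest absolute t (the mean difference divided by its standard error, with unequal variances) of the arrays at CT7 and CT19 against those at CT1 and CT13, after genes with a mean log2 signal under 7.4 were dropped. The clock gene Bhlhe41, which has this pattern too, was left out. Every value of these genes in the control arrays therefore describes the choice and supports nothing about them, counts from a fit included. The tests of time in the mutant compare mutant means, which the choice did not use. Their errors come from 1 spread shared by all 24 arrays. Control arrays, in which the choice favoured a narrow spread, thus enter these errors, and comparisons of members with all genes are not wholly free of the choice. Of the 100 genes, 38 were high at CT7 and CT19 and 62 were high at CT1 and CT13. Each was measured on all 24 Affymetrix arrays of eWAT, the white fat beside the epididymis, with 1 array per mouse and 3 mice in each of 8 groups. Control mice (CON) were Syt10-Cre/Cre x Bmal1-+/- and mutant mice (MUT) were Syt10-Cre/Cre x Bmal1-flox/-, so both carry 2 Cre alleles and lack 1 working copy of Bmal1. Syt10-driven Cre removes the remaining floxed copy in MUT, which deletes the clock of the SCN, the brain's pacemaker. Mice spent 2 weeks in light and dark, were released into darkness, and were killed on the second day at CT1, CT7, CT13 or CT19; their age is not given in the labels. The source field names mediobasal hypothalamus, but the median adipocyte marker (11 measured) ranked at percentile 99.8 of all signals and the median marker of hypothalamus and neurons (8 of 13 measured) at 30.2.

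Most daily rhythms of a tissue have a period near 24 h, made by a feedback loop in which BMAL1 and its partner switch on their own repressors. Some genes of liver and other tissues instead rise and fall with a period near 12 h, among them genes of the endoplasmic reticulum, and such rhythms have been tied to feeding, to the SCN and to a stress-response factor of that organelle, XBP1. Sampling every 6 h gives 2 points per 12-h cycle. At that spacing only the difference between the pairs of times can be seen, a rhythm that crosses its mean at the sampled times is invisible, and a change of phase cannot be told apart from a change of size.

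Sequences are shown here for the 2 microRNA genes among the 100 and for members whose region before the start holds a motif linked to the clock or to the 12-h literature. Both come from RefSeq on GRCm38.p6. Mir703 and Mir181c are the microRNA members, with mature forms that share no seed, and the capitals mark the seed, bases 2 to 8. A probe set of this kind of array does not separate a mature form from its precursor.
mmu-miR-703 (chr5:98475616-98475636, minus strand): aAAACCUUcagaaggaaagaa
mmu-miR-181c-5p (chr8:84178924-84178945, minus strand): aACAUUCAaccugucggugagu
mmu-miR-181c-3p (chr8:84178885-84178906, minus strand): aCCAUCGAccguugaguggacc

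The 100 genes matched 92 listed starts, of 75 genes, and the windows searched ran from 250 bases before to 50 after each start, on both strands. The E-box CACGTG, which BMAL1 and its partner bind, was found in 8 of the 92 windows (8.7%) and in 9.24% of the 15195 windows of all tested genes. GACGTG, the core of the element that XBP1 binds, was found in 8 windows (8.7%) against 8.64% of all. Of the 28 windows of genes high at CT7 and CT19, 6 held GACGTG (21.4%), those of Vegfa, Tfdp1, Pip4p1, Nsrp1 and Adpgk. A gene with several starts can count more than once. Of the 64 windows of genes high at CT1 and CT13, 2 held it (3.12%), those of Mt1 and Fthl17f. CCAAT, bound by NFY, was in 46.7% of member windows and 36.6% of all, GGGCGG, bound by SP and KLF factors, in 60.9% and 55.5%, and CCGGAAGT, an ETS site, in 7.61% and 6.21%. TATAAA was in 6.52% and 8.74%. Split by direction as for GACGTG, with genes high at CT7 and CT19 first, the E-box was in 14.3% and 6.25% of windows and CCAAT in 35.7% and 51.6%. TTATGTAA, the D-box, was in 0 of 92 and 0.579% of all, and 0 of 92 held the REV-ERB/ROR element (0.191% of all). The cAMP response element was in 1.09% and 2.59%, and 0 of 92 held the heat shock element (0.467% of all), the YY1 site (1.15%) or the endoplasmic reticulum stress element (0.125%). These shares describe letters and no test was made of them. The 250 bases before the start are printed for 5 genes, with each E-box and each XBP1 core, on either strand, in capitals. Tfdp1 and Pdp2 were taken for their values in MUT, and Pip4p1 because both motifs lie in the bases shown. Adpgk is a further gene of the same direction and Mt1 one of the opposite direction. Tfdp1 has 2 listed starts, of which 1 is printed, and its GACGTG lies outside the bases shown.
Tfdp1 (chr8:13338501-13338750, plus strand): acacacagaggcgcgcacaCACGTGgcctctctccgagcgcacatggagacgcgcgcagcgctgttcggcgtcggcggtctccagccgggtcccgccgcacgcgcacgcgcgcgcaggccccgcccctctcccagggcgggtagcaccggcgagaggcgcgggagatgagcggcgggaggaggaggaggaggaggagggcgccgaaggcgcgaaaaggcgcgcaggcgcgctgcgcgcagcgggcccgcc
Pdp2 (chr8:104591222-104591471, plus strand): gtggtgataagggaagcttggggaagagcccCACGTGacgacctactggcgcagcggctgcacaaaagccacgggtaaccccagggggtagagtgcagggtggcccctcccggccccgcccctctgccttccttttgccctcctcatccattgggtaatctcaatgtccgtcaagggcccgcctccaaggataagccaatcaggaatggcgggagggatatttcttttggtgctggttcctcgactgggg
Pip4p1 (chr14:50930850-50931099, minus strand): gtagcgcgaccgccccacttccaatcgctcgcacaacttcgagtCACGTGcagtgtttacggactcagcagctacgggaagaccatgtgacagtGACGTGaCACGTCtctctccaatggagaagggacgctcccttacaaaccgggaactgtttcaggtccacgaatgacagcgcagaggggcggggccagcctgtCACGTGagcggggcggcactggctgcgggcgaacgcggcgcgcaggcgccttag
Adpgk (chr9:59291322-59291571, plus strand): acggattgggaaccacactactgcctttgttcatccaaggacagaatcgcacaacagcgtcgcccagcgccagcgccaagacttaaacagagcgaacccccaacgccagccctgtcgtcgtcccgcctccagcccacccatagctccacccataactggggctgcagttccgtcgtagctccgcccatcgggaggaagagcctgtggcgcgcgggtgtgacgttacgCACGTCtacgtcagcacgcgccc
Mt1 (chr8:94178839-94179088, plus strand): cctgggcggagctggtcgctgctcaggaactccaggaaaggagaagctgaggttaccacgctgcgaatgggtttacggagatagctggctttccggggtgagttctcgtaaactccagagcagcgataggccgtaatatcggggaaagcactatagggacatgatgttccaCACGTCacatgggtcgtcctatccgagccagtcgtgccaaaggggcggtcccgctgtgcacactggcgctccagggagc

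In CON the alternation was small in nearly all members. Written as the mean at CT7 and CT19 minus the mean at CT1 and CT13 on the log2 scale, its size had a median of 0.16 (12% between the pairs of times) and ran from 0.057 (4.03%) to 0.59 (50.9%); the median over all tested genes was 0.044. Only 12 of the 100 reached 1.2-fold. The group means went up and down at every step in all 100, against 17% of all genes, and the 6 arrays of one pair did not overlap the 6 of the other in 16 members, against 0.109% of all genes. These counts follow from the choice, and so do those of the fit. In limma's fit over all genes, with p-values adjusted after Benjamini and Hochberg, 0 members passed 0.05 for the CON alternation and 4 other genes (0.0256%) did.

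Among the 38 genes high at CT7 and CT19, Rny1, which encodes a small noncoding Y RNA of the Ro particle, alternated most. Its log2 signals in CON were 9.79, 9.78 and 9.51 at CT1, 10.17, 10.24 and 10.49 at CT7, 9.93, 9.68 and 10.43 at CT13, and 10.62, 10.55 and 10.62 at CT19. The array of replicate 3 at CT13 lay among those of CT7, so the pairs of times overlapped. The difference was 0.59 ± 0.11 (SE of the limma fit, 3 arrays per group, as are the errors of differences below). Mir703 followed with 0.44 ± 0.17, and the SD of its 3 arrays in a group was up to 0.27 in CON and 0.58 in MUT. The predicted gene 9430037G07Rik differed by 0.36 ± 0.10.

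Gpcpd1, whose enzyme cleaves glycerophosphocholine, was at 9.34, 9.34 and 9.45 at CT1, 9.66, 9.57 and 9.44 at CT7, 8.94, 9.19 and 8.99 at CT13, and 9.52, 9.58 and 9.48 at CT19 in CON. The fall at CT13 was deeper than the level at CT1, and 1 array of CT7 lay within the range of CT1; the difference was 0.33 ± 0.06. Tfrc, the transferrin receptor through which cells take up iron, ran from 8.05 to 8.44 with a median of 8.24 at CT7 and CT19, and from 7.75 to 8.21 with a median of 7.89 at CT1 and CT13. Replicate 2 at CT1 gave the overlap, and the difference was 0.32 ± 0.12. Vegfa, the main growth factor of blood vessels, ran from 10.97 to 11.23 (median 11.18) and from 10.72 to 10.99 (median 10.98), a difference of 0.25 ± 0.06. Of its arrays at CT7 and CT19 only replicate 3 of CT19 lay within the range of the other pair.

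The other large differences of this direction belonged to genes of varied roles. Tmem120b, a nuclear envelope membrane protein gene, differed by 0.31 ± 0.08, Eln, which encodes elastin, by 0.30 ± 0.08 and the kinesin gene Kifc5b by 0.26 ± 0.08. Snord42b, a small nucleolar RNA gene, differed by 0.25 ± 0.07, the Notch ligand gene Jag2 by 0.24 ± 0.07, Mtss1, whose protein bends membranes and binds actin, by 0.22 ± 0.06, and Efhd1, a calcium-binding protein gene of mitochondria, by 0.21 ± 0.07. Abhd5, whose protein activates the lipase of the first step of lipolysis, completed the 14 largest (0.21 ± 0.09). Zfp869, a zinc finger protein gene, had the highest t of all (6.08) with a difference of only 0.12 ± 0.04. Its 6 arrays at CT7 and CT19 ran from 9.01 to 9.07 and the other 6 from 8.84 to 8.95, so the rule had ranked it first for its narrow spread and not for its size.

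Among the 62 genes high at CT1 and CT13, Tes, which encodes the focal adhesion protein testin, alternated most. Its log2 signals in CON were 8.72, 8.25 and 8.45 at CT1, 8.03, 7.85 and 7.73 at CT7, 8.30, 8.50 and 8.27 at CT13, and 7.89, 7.62 and 8.37 at CT19. Replicate 3 at CT19 lay within the range of the high pair, and the difference was -0.50 ± 0.11. The olfactory receptor gene Olfr823 followed with -0.43 ± 0.09, from 7.27 to 7.79 at CT7 and CT19 and from 7.81 to 8.21 at CT1 and CT13, with no overlap. Its mean signal of 7.70 lies near the floor of 7.4, and olfactory receptors are a family of many similar genes, so that what its probe set reads is uncertain.

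The Wnt receptor gene Fzd5 differed by -0.32 ± 0.08 and its relative Fzd4, the brightest member with a mean signal of 12.12, by -0.23 ± 0.07. In Fzd5 the arrays at CT7 and CT19 ran from 7.89 to 8.43 (median 8.22) and the others from 8.26 to 8.67 (median 8.53), which overlapped. Bcl2, which encodes an inhibitor of apoptosis, ran from 10.09 to 10.55 (median 10.37) at CT7 and CT19 and from 10.52 to 10.87 (median 10.58) at CT1 and CT13, a difference of -0.28 ± 0.07. Rgs5, a regulator of G protein signalling known as a pericyte marker, ran from 11.36 to 11.67 (median 11.49) and from 11.61 to 11.87 (median 11.74), a difference of -0.24 ± 0.09. In these 4 genes CT7 was the lower of the low pair, as the plot of 8 members shows for 3 of them.

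The remaining genes of this direction with large differences were Olfr558 (-0.24 ± 0.06), the predicted gene Gm9776 (-0.23 ± 0.05), Bglap, which encodes osteocalcin (-0.21 ± 0.08), Ccdc166 (-0.20 ± 0.06) and Cntn1, which encodes a neural adhesion protein (-0.20 ± 0.08). Tmod1, whose protein caps actin filaments (-0.18 ± 0.05), the spermatid histone gene Hils1 (-0.18 ± 0.07) and Ufsp1, a protease gene of the UFM1 pathway (-0.18 ± 0.05), completed the 14 largest. The smallest difference of all 100 was that of the kinase gene Csnk1g1, at -0.057.

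**Figure D1:**
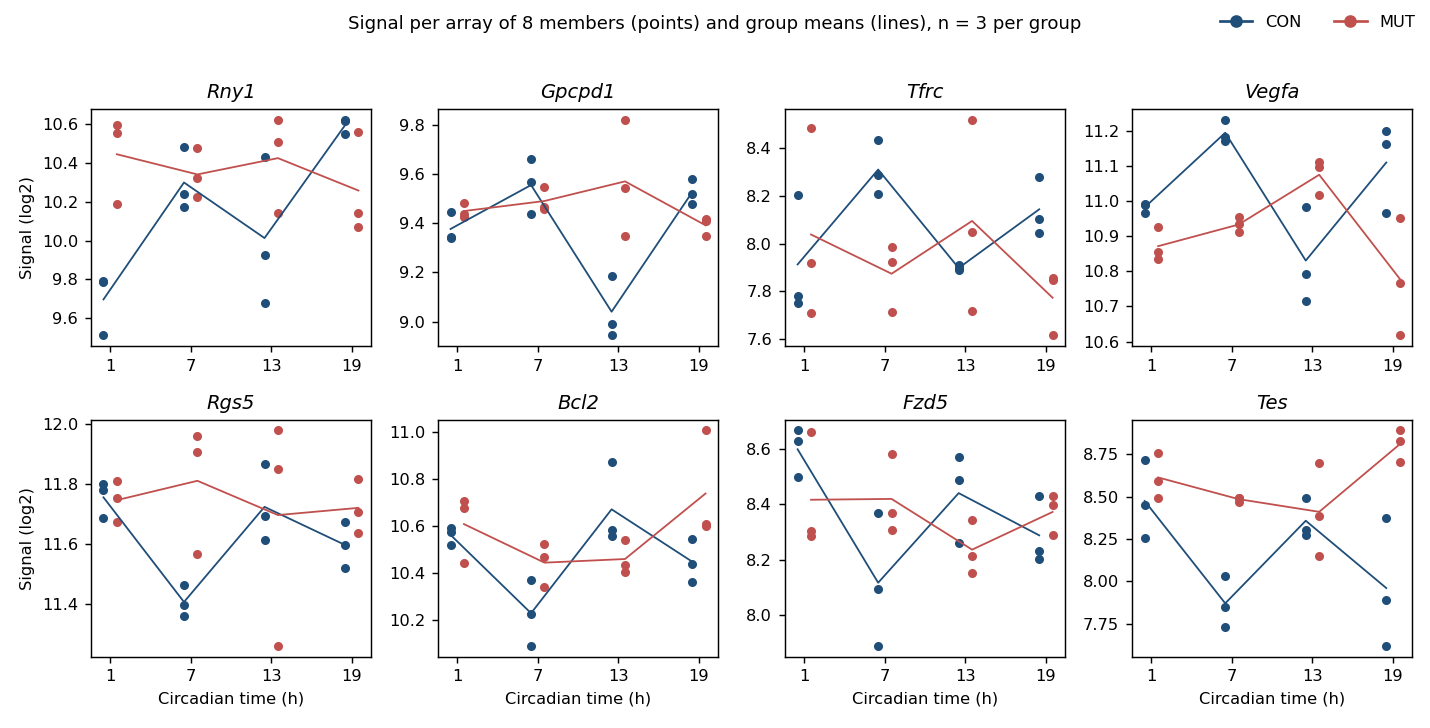
Log2 signal of 8 members against circadian time in h, with CON in blue and MUT in red; each point is 1 array (3 per group), drawn beside its time, and lines join the group means. The top row holds 4 genes high at CT7 and CT19 in CON and the bottom row 4 genes high at CT1 and CT13, and the MUT lines do not repeat the CON zigzag.

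The edge of the list was not marked by a step in the values. The last genes inside were Fbxw8, Nrarp and Srrd, with t of -3.16, -3.16 and 3.16, and the first outside were Psg19, Gm11983 and Slc22a15, with -3.15, -3.15 and 3.15. Applied again without 1 CON array at a time, the rule kept from 50 (without CT19 replicate 3) to 71 (without CT7 replicate 3) of the 100 genes, and 20 were kept in all 12 omissions, Zfp869, Rny1, Kifc5b, Efhd1, Pip4p1, Rbfox2, Itgb1bp1, Tes, Olfr823, Rgs5, Myo1c and Tmod1 among them. Membership also changed with the statistic: 28 of the 100 were kept with limma's moderated t in the CON arrays, and 10 with the plain log2 difference.

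The 4 genes that passed in the CON fit were Bhlhe41 and 3 genes outside the list. Bhlhe41, which encodes the clock repressor DEC2, was at 7.95, 9.17, 8.34 and 9.15 on average at CT1, CT7, CT13 and CT19 in CON, a difference of 1.02 ± 0.17 (adjusted p = 0.0197). Its relative Bhlhe40 (0.90 ± 0.15, adjusted p = 0.0229), the clock repressor gene Ciart (0.55 ± 0.05, adjusted p = 3.66e-06) and the glycolysis regulator gene Pfkfb3 (0.55 ± 0.07, adjusted p = 0.000281) held ranks 432, 536 and 245 by the rule. Each of these 3 also had a 24-h rhythm in CON, with peak-to-trough sizes of 1.66, 1.07 and 0.89, and the t of the rule counts such a rhythm as spread. The fitted 24-h peak-to-trough of the members in CON ran from 0.013 to 0.43, and 2 of the 100 were called for a 24-h rhythm there, against 16.9% of all genes.

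**Figure D2:**
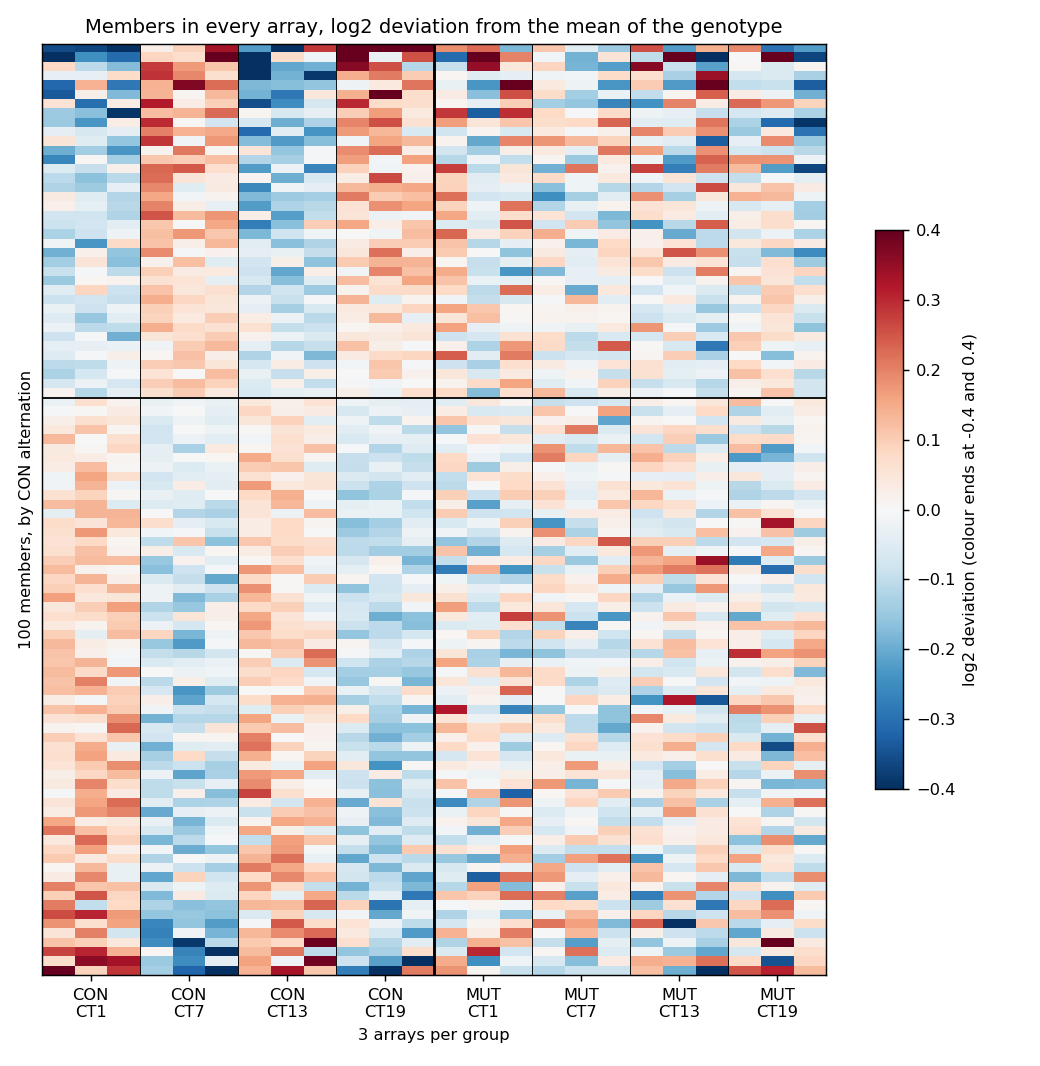
Log2 deviation of the 100 members (rows, ordered by their CON alternation) from their mean in the same genotype, in each of the 24 arrays (columns, 3 per group; the colour ends at -0.4 and 0.4). The 12 CON arrays form 4 blocks of alternating colour above and below the line between the 38 and the 62 genes, as the choice requires, and the 12 MUT arrays do not.

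In MUT no member was called for the alternation. The same contrast called 0 of the 100 at an adjusted p under 0.05 (limma, two-sided), against 7 of 15607 genes (0.0449%), and the smallest adjusted p of a member was 0.357. Fitted on the MUT arrays alone, without the spread of the CON arrays, it called 0 members and 1 of 15607 genes. At an unadjusted p under 0.05 there were 8 members and 7.36% of all genes; 2 of the 8 had the CON direction (3.47% of all genes) and 6 the opposite one (3.89%). The size of the MUT alternation had a median of 0.044 in the members and 0.046 in all genes. The sign was that of CON in 39 members and the opposite in 61, and over all genes 49.6% had the same sign and 50.4% the opposite; of the 60 members whose sign stayed the same without any single MUT array, 29 had that of CON. Turned to the CON direction, the MUT alternation had a median of -0.012 over the members and -0.00063 over all genes, and ran from -0.24 (Tfrc) to 0.20 (Fkbpl). The 95% interval of the MUT value, whose width rests on the spread of CON and MUT arrays together, held 0 in 92 members. Turned to the CON direction, it held the CON size in 23 and lay below it in 77, and the choice favours large CON sizes. In CON, too, the fit called 0 of these 100. A count of 0 calls in MUT therefore cannot tell a kept alternation from a lost one. Since the CON values chose the genes, no test of the difference between genotypes is given.

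Of the 38 genes high at CT7 and CT19, 27 were negative and 11 positive in MUT, with a median of -0.019. Of the 62 genes high at CT1 and CT13, 34 were positive and 28 negative, with a median of 0.0042; the difference between these splits was not tested. Over all genes 46.6% were positive in MUT. The group means went up and down at every step in 29 members in MUT, 12 in the CON direction and 17 against it, beside 27.9%, 14% and 13.9% of all genes. The arrays of the pairs overlapped in all 100, and 0.282% of all genes had no overlap.

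The 8 members with the smallest p for the MUT alternation were Fkbpl, Gm9776, Pdp2, Tfdp1, Bccip, Snord42b, Tmem86b and Vegfa, with adjusted p from 0.357 to 0.667 and from 0.143 to 0.95 over 32 alternative fits. Of these, 2 had the CON sign. Fkbpl, which encodes a relative of the FK506-binding proteins, was at 9.19, 9.30 and 9.31 in MUT at CT1, 9.36, 9.13 and 9.23 at CT7, 9.42, 9.44 and 9.62 at CT13, and 8.997, 9.23 and 9.13 at CT19. The high level stood at CT13 alone, while CT1 overlapped CT7, and the difference was -0.20 ± 0.05. Tmem86b, a lysoplasmalogenase gene, differed by -0.12 ± 0.06.

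The other 6 had the sign opposite to CON. Vegfa was at 10.83, 10.93 and 10.85 in MUT at CT1, 10.96, 10.91 and 10.93 at CT7, 11.11, 11.02 and 11.10 at CT13, and 10.77, 10.95 and 10.62 at CT19. Its peak thus stood at CT13, the lowest point of CON, and the difference was -0.12 ± 0.06 with a 95% interval from -0.23 to -0.0027. Pdp2, whose enzyme reactivates pyruvate dehydrogenase, was at 8.67 ± 0.10 (SD, n = 3) at CT13 and 8.34 ± 0.08 at CT19 in MUT, where CON had 8.53 ± 0.04 and 8.68 ± 0.11, and its MUT difference was -0.14 ± 0.06. Tfdp1, the partner of the E2F cell cycle factors, differed by -0.12 ± 0.05, Bccip, a BRCA2-binding protein gene, by -0.13 ± 0.05 and Snord42b by -0.15 ± 0.07. Gm9776, low at CT7 and CT19 in CON, was 0.14 ± 0.05 higher at those times in MUT.

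Of the members with the largest CON values, Rny1 was in MUT at 10.55, 10.60 and 10.19 at CT1, 10.48, 10.33 and 10.22 at CT7, 10.63, 10.14 and 10.51 at CT13, and 10.56, 10.07 and 10.14 at CT19, so that all 4 times overlapped. Its difference was -0.14 with a 95% interval from -0.37 to 0.10. Tes differed by 0.14 (interval -0.08 to 0.35), Gpcpd1 by -0.07 (-0.20 to 0.06), Fzd5 by 0.07 (-0.10 to 0.24), Bcl2 by 0.06 (-0.09 to 0.21) and Rgs5 by 0.04 (-0.14 to 0.23). Tfrc had the largest opposite value, -0.24 (-0.49 to 0.0059). In Tfrc 1 array each at CT1 (8.49) and CT13 (8.52) lay far above the other 10 MUT arrays, which ran from 7.62 to 8.05. Mir703 differed by 0.0071 with a wide interval (-0.33 to 0.35).

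**Figure D3:**
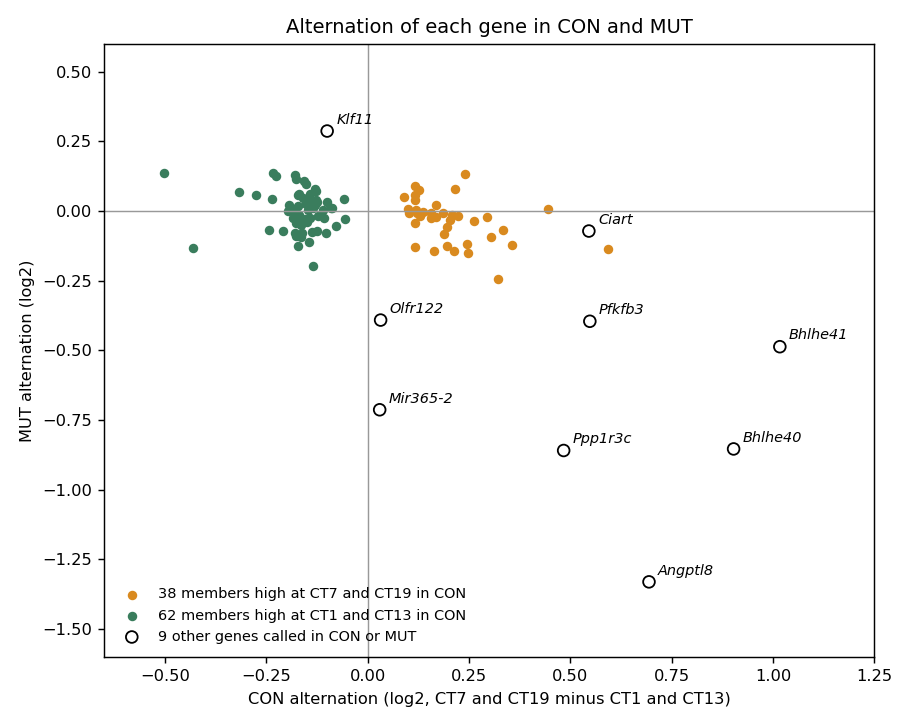
Alternation in MUT against alternation in CON, both as log2 of CT7 and CT19 minus CT1 and CT13, for the 38 members high at CT7 and CT19 in CON (orange), the 62 members high at CT1 and CT13 (green) and the 9 genes outside the list called in either genotype (open circles). No member lies in the band around 0 on the horizontal axis, because of the choice, while open circles can lie in it. The MUT values of the members spread on both sides of 0 between -0.24 and 0.14.

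The 7 genes called for the alternation in MUT were all outside the list and all had the sign opposite to CON, also where the CON value was near 0. Bhlhe40 (-0.85 ± 0.15, adjusted p = 0.0282) and Pfkfb3 (-0.40 ± 0.07, adjusted p = 0.0182) were called in both genotypes in opposite directions. Bhlhe41 was at -0.49 ± 0.17 in MUT and did not pass (adjusted p = 0.499).

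A score was formed for each array from the mean deviation of the 38 genes minus that of the 62, each gene centred on its mean in the genotype. In CON it averaged -0.19 ± 0.0040 (SD, n = 3) at CT1, then 0.19 ± 0.03, -0.19 ± 0.04 and 0.19 ± 0.03 at the following times, and the lowest array of the high pair (0.16) stood far above the highest of the low pair (-0.14). In MUT it was 0.03 ± 0.04, -0.0080 ± 0.02, 0.0030 ± 0.03 and -0.03 ± 0.08 at the same times. The single MUT arrays ran from -0.12 (CT19 replicate 3) to 0.06, inside the gap that CON left empty. The CON score shows the choice of genes, and only the MUT score was free of it.

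**Figure D4:**
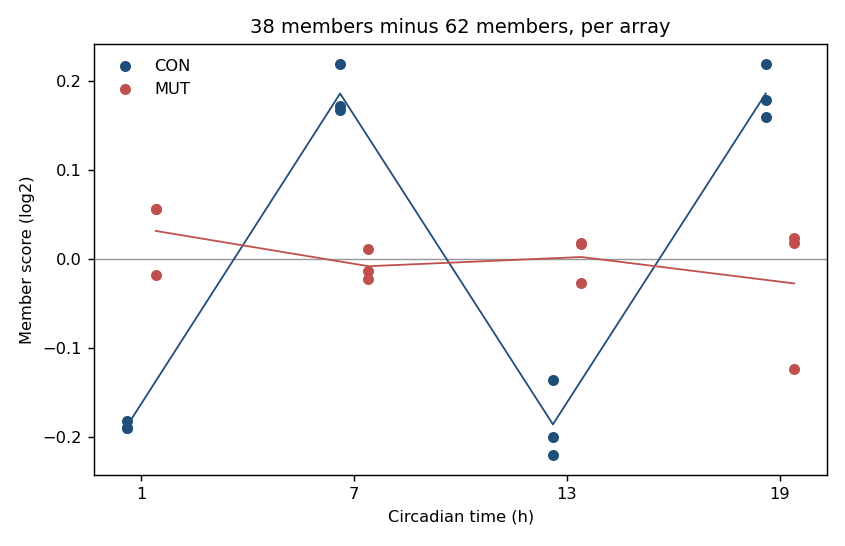
Score of the members in log2 units (mean deviation of the 38 genes high at CT7 and CT19 in CON minus that of the 62 genes high at CT1 and CT13) against circadian time in h, 1 point per array, CON in blue and MUT in red, with lines through the group means. CON arrays lie at or beyond 0.16 and -0.14, as the rule requires, and MUT arrays between -0.12 and 0.06.

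Nor was another daily pattern called in MUT. A 24-h cosine called 0 members at an adjusted p under 0.05 (limma's moderated F, smallest adjusted p of a member 0.081) and 54 of all genes (0.346%). Any difference among the 4 times called 0 members (smallest adjusted p 0.0908) and 66 genes (0.423%). With the MUT arrays alone, the cosine called 0 members and 38 genes, and any difference 0 members and 45 genes. At an unadjusted p under 0.05 the counts were 19 members against 14.6% of all genes for the cosine and 17 against 14.1% for any difference. Phactr2, whose protein binds actin and a phosphatase, had the smallest p in both. It was at 8.98 ± 0.12 (SD, n = 3), 8.96 ± 0.04, 9.06 ± 0.12 and 9.28 ± 0.07 in MUT at CT1, CT7, CT13 and CT19, a fitted peak-to-trough of 0.34 with its peak at CT18.1. It passed for the cosine without CON CT13 replicate 3 (adjusted p = 0.0475) or MUT CT13 replicate 1 (adjusted p = 0.0408), and with weights for arrays (adjusted p = 0.00958).

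The daily mean of each genotype was not used by the rule, but the error of its test includes the spread of the CON arrays, which the rule favoured when narrow. The share of members called, beside that of all genes, is therefore not free of the choice. The mean over the 4 times differed at an adjusted p under 0.05 (limma, two-sided) in 26 members, against 21.7% of all genes; 11 members were higher in MUT (12.2% of all genes) and 15 lower (9.48%). These counts changed with the arrays and the model used. Without the 3 CON arrays of narrowest spread (replicates 2 and 3 of CT7, replicate 1 of CT13) 4 of the 26 stayed, and 297 of all 15607 genes were called. Fewer arrays also give less precision. Among the calls lost, the difference of Olfr823 hardly moved (-0.264 with and -0.265 without these arrays), and that of Nsrp1 shrank (0.145 and 0.0924). With the mesothelium score of each array as a covariate 6 members and 232 of all genes were called.

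The 4 members called with and without those arrays were Tes, Phactr2, Cyp26b1 and Snord42b, and they were also called with the covariate. Tes was at 8.17 in CON and 8.58 in MUT on average over the day, higher by 0.42 ± 0.07 (adjusted p = 0.00229, and 0.0452 without the 3 arrays). Phactr2 was higher in MUT by 0.21 ± 0.04 (adjusted p = 0.00168). Cyp26b1, whose enzyme breaks down retinoic acid, was at 8.85 in CON and 8.68 in MUT, lower by 0.17 ± 0.03 on the log2 scale (difference -0.17, adjusted p = 0.00369). Snord42b was at 8.29 and 8.05 (difference -0.24 ± 0.05, adjusted p = 0.00399). Fkbpl (-0.19 ± 0.04, adjusted p = 0.004, and 0.0572 without the 3 arrays), Cby2 (-0.15 ± 0.03, adjusted p = 0.00683, and 0.0847), Ticrr, which acts in starting DNA replication (-0.14 ± 0.03, adjusted p = 0.00618, and 0.0704), and Olfr823 (-0.26 ± 0.06, adjusted p = 0.00915, and 0.0703) were the next smallest p. Vegfa was lower in MUT by a difference of -0.12 ± 0.04 (adjusted p = 0.0399), a call that 15 of the 24 omissions of 1 array ended.

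The members were described by signal, kind of gene, position and fixed lists, and no test of a shared trait was made. Their mean signal had a median of 8.56, against 8.66 for all genes; 29 lay under 8, against 23.3% of all genes, and 13 at 10 or more, against 14%. Of the 25 members with a mean signal from 7.4 to 7.927, 21 were high at CT1 and CT13, and of the 18 from 9.679 to 14.02, 8 were. Over all genes the CON alternation was positive in 43.4%, with medians from -0.016 to -0.0077 in 5 equal classes of signal. The spread of log2 signals over all probe sets was 1.59 to 1.64 in the CON arrays of CT7 and CT19 and 1.58 to 1.63 in those of CT1 and CT13, which overlapped. The part of signal level in the direction of the members was not tested.

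Of the 100, 88 were protein-coding genes (90.3% of all tested), 6 long noncoding RNA genes and 4 small RNA genes, the latter being Rny1, Mir703, Mir181c and Snord42b. No chromosome held more than 9 members, and a single pair, Fthl17f and 4930402K13Rik on the X chromosome, had no tested gene between them. The fixed gene lists were short, and 0.641% of all tested genes were members, so that a list would seldom hold one. Of 15 pathway lists 2 held a member, Abhd5 in lipolysis and fatty acid handling (1 of 12 tested genes) and Mt1, the metallothionein gene, in glucocorticoid targets (1 of 13). Mt1 differed by -0.17 ± 0.06 in CON and 0.02 ± 0.06 in MUT.

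The lists that the 12-h literature would point to held none. Of 26 tested genes of the unfolded protein response and chaperones of the endoplasmic reticulum 0 were members, 0 were called for the alternation in CON and 0 in MUT, and the median difference was 0.027 in CON and -0.083 in MUT, against -0.011 and -0.0057 over all genes. At an unadjusted p under 0.05 there were 5 of the 26 in CON, where 6.66% of all genes were, and 9 of the 26 in MUT, where 7.36% were. Of 36 genes of translocation and transport from that organelle 0 were members and 0 called (1 and 3 at an unadjusted p under 0.05), and of 22 splicing genes 0 and 0 (3 and 6). Of the 19 tested clock genes 0 were members, and 2 were called in CON and 1 in MUT. Families by symbol gave 1 of 54 cytosolic ribosomal proteins (Rps14, 0.09 ± 0.05), 3 of 269 zinc finger genes, 4 of 192 Tmem genes, 2 of 190 olfactory and vomeronasal receptors, 8 of 1348 predicted and RIKEN genes and 3 of 236 microRNA and small RNA genes, where 0.641% of all genes were members.

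Among 15 lists of cell type markers 1 held a member, Rgs5 among 7 markers of smooth muscle and pericytes. The median deviation of that list ran from -0.28 to 0.0070 in CON at CT7 and CT19 and from -0.11 to 0.02 at CT1 and CT13. For mesothelium, with 10 markers, the ranges were -0.70 to 0.38 and -0.53 to 0.39, for endothelium, with 8, -0.16 to 0.11 and -0.22 to 0.08, and for adipocytes, with 11, -0.11 to 0.04 and -0.02 to 0.02. The ranges of the pairs overlapped in all 15 lists, as they did in nearly all single genes (0.109% had no overlap in CON). The CON medians at CT7 and CT19 and at CT1 and CT13 were -0.286 and -0.119 for mesothelium and -0.098 and 0.021 for endothelium. They were -0.061 and -0.029 for smooth muscle and pericytes, and -0.006 and 0.003 for adipocytes. For macrophages the medians were -0.134 and -0.025, for mast cells -0.13 and -0.038, and for fibroblasts and preadipocytes -0.125 and -0.016. The order was opposite in T cells (0.022 and 0.014, with 2 markers measured), B cells (0.017 and 0.016), skeletal muscle (0.006 and -0.01) and epididymis (0.054 and 0.035). Every other list was lower at CT7 and CT19. A part of cell types in the alternation was not tested. In a tissue sample, fewer cells of a type and less RNA per cell cannot be told apart. Kifc5b, Rps14, Fthl17f, Olfr823, Olfr558, Speer2, Hils1 and Rny1 belong to families of similar genes or have close copies, so their probe sets may read more than 1 gene.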

How the data were processed

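The authors hybridised total RNA from eWAT of 24 mice to 1 Affymetrix GeneChip each and deposited log2 expression values made with RMA and Affymetrix Expression Console, per the submitters' processing notes; the genome build was not given in the sources used here. Of 34390 probe sets, 23521 had a single symbol, 1814 had several and 9055 lacked one. Single symbols were updated by Entrez identifier (23328 matched), the brightest probe set of each gene was kept, and 15607 genes reached a mean of 7.4. A cell-means model of the 8 groups (16 residual degrees of freedom) was fitted with limma 3.58.1 in R 4.3.3, and two-sided p-values were adjusted after Benjamini and Hochberg across the 15607 genes and called at 0.05. The rule, members and lists were chosen with earlier results of these data known. Named are the 14 largest differences in each direction, the 8 smallest p in MUT, up to 8 daily mean calls, list members and the ranks at the edge; others were chosen after their values were seen. The pipeline was tested on simulated data. The number of arrays limits the precision. Python 3.11.15 with matplotlib 3.10.9 drew the figures.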

Additional observations from a re-analysis of the deposited data

How the results depend on the processing

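In the 32 alternative fits of the MUT alternation, which left out each array, changed the normalization, centring, variance model, array weights or samples, or added the mesothelium score or a replicate block, 0 members were called; the same held without the level filter, with a filter at the 60th percentile, with probe sets averaged per gene and with a fold of at least 1.2. Without single arrays the members with the CON sign numbered 38 to 48, their median was -0.0209 to -0.0051, daily mean calls numbered 19 to 33, calls of a MUT cosine 0 to 1, calls of any time difference 0 to 2 and members kept on reselection 50 to 71. The filter at the 60th percentile left 55 members, of which 16 had the CON sign and 15 were called for the daily mean. With array weights 4 members were called for a MUT cosine (Phactr2, Mir181c, Snord42b and Eln) and 4 for any time difference, where 551 and 482 of all 15607 genes were, and 39 for the daily mean, where 4794 were; daily mean calls fell to 4 without the 3 arrays of narrow spread (297 of all genes) and to 6 with the mesothelium score (232). Reselection kept 61 members after quantile normalization, 65 without the filter, 55 at the 60th percentile, 35 without the 3 arrays of narrow spread, 28 with limma's t and 10 with the plain difference. The cause of these changes was not tested. The letters of the titles did not pair the arrays (deviations of the 84 same-letter pairs correlated at a median of -0.015, 17 of them over 0.1); with the replicate block 0 members were called for the MUT alternation, 39 had the CON sign with a median of -0.0124, 0 were called for the cosine, 0 for any time difference and 26 for the daily mean, the same counts as without it.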
